A study of Homo sapiens
Mus musculus with 2 samples.

Results

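Colonocytes rich in Atp12a and Slc37a2 were described in single-cell RNA profiles of colonic epithelium from 1 wild-type (WT) mouse, an untreated animal of the C57Bl6 strain. The members were chosen by measured levels. Per barcode, counts of unique molecular identifiers (UMIs, each marking 1 captured molecule) were scaled to 1000000 UMIs of that barcode (CPM). Colonocytes, the absorptive cells of the colon, were barcodes with at least 3000 UMIs, under 20% of UMIs from mitochondrially encoded genes, Zg16 under 20000 CPM, and Prdx6, Tgm3 and Ces2c together at 2500 CPM or more. Members were the colonocytes with Reg3b and Reg3g together under 1500 CPM and with Atp12a, Slc37a2 and Fxyd4 together at 700 CPM or more. This rule took 196 of 488 colonocytes, out of 2402 barcodes in all. The other 292 colonocytes were 63 Reg3-rich cells, at or above 1500 CPM of Reg3b and Reg3g, and 229 cells low in both, under both limits.

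The cells came as 2 libraries, called replicates 1 and 2, of different cells of the same animal, and every cell belongs to 1 untreated group. Epithelium was released with EDTA and an enzyme digest and viable cells were enriched by magnetic sorting (MACS). Cells of K562, a human leukaemia line, were mixed in and were not analysed here. Droplet barcoding (inDrop) and CEL-Seq amplification gave the UMI counts. Both libraries share 1 animal, and the library was a block in the tests. The p-values therefore set class differences only against how these varied between the 2 libraries, which may be technical. They cover no spread between animals.

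Atp12a is the catalytic subunit of the non-gastric proton-potassium pump, which in the distal colon exchanges luminal potassium for protons at the apical membrane. Slc37a2 carries glucose-6-phosphate in exchange for phosphate across the membrane of the endoplasmic reticulum. Fxyd4 is a small regulator of the sodium-potassium pump that, in rats, is induced by aldosterone in the distal colon. Fabp6 is a bile acid-binding protein best known from the ileum, where it carries bile acids through the absorptive cell. Colonocytes arise at the crypt base, mature as they move up and are shed from the surface, and the surface cells carry out most of the uptake of sodium, chloride and water.

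Members were 132 of 361 colonocytes in replicate 1, or 36.6% (exact 95% binomial interval 31.6 to 41.8%). They were 64 of 127 colonocytes in replicate 2, or 50.4% (41.4 to 59.4%). Members made up 8.16% of all barcodes. These intervals, like all others given, cover counting error only. The summed level of the 3 chosen genes had a median of 1379 CPM over members of replicate 1 and 1567 CPM over those of replicate 2, and reached 6001 and 6268 CPM. Its median was 195 and 235 CPM in colonocytes low in both, and 0 in the Reg3-rich cells of both libraries. The lowest member of replicate 1 stood at 711 CPM and that of replicate 2 at 721 CPM, and the highest cell under the limit at 696 and 685 CPM. Within 100 CPM of the limit lay 12 members above and 23 cells below in replicate 1, and 3 members above and 4 cells below in replicate 2. The levels thus ran without a gap across the limit. In UMIs, a median member held 9 of the chosen genes in replicate 1 and 14 in replicate 2, and the lowest held 3 and 4. Counting error on membership is therefore large for the 29 and 6 members with 3 to 5 such UMIs.

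**Figure D1:**
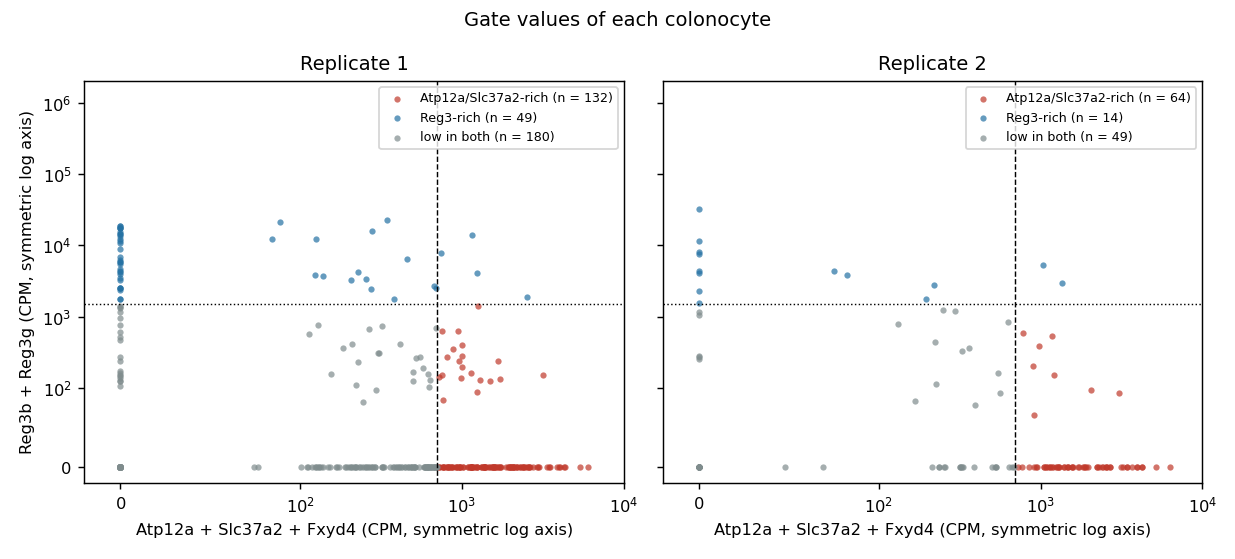
Each point is 1 colonocyte, with the summed level of Atp12a, Slc37a2 and Fxyd4 (x axis, CPM, symmetric log axis) against that of Reg3b and Reg3g (y axis, CPM, symmetric log axis), for replicate 1 (left) and replicate 2 (right); dashed and dotted lines mark 700 and 1500 CPM. The 132 and 64 members lie right of the dashed line and below the dotted line, and cells low in both reach up to 696 and 685 CPM without a gap.

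The label names Atp12a and Slc37a2 together, but many members carried 1 of them without the other. In replicate 1, 76 members had UMIs of Atp12a and Slc37a2 without Fxyd4, 19 of Atp12a alone, 4 of Slc37a2 alone and 18 of all 3 genes. In replicate 2, 24 had Atp12a and Slc37a2 without Fxyd4, 23 Atp12a alone, 0 Slc37a2 alone and 10 all 3 genes. Atp12a gave most of the UMIs that chose the members, with 62.6% in replicate 1 and 79.2% in replicate 2. Slc37a2 gave 30.9 and 14.9%, and Fxyd4 6.48 and 5.92%. By Atp12a alone, 84 members of replicate 1 and 56 of replicate 2 would have passed 700 CPM. By Slc37a2 alone 41 and 11 would have passed, and by Fxyd4 alone 3 and 4. Most members, but not all, were therefore rich in Atp12a by itself. A Slc37a2 UMI was seen in 100 of 132 members of replicate 1 and 35 of 64 of replicate 2.

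The following levels of the chosen genes are descriptions with no test, since they picked the cells. Atp12a stood at 1011 and 1492 CPM in the summed UMIs of members of replicates 1 and 2, against 103 and 159 CPM in Reg3-rich cells and 175 and 148 CPM in cells low in both. An Atp12a UMI was seen in 95.5 and 98.4% of members, 30.6 and 35.7% of Reg3-rich cells, and 53.3 and 53.1% of cells low in both. Goblet barcodes (Zg16 at 20000 CPM or more), which should lack a colonocyte pump, had one in 34.7 and 51.6% of cells. Median totals were 6041 and 7749 UMIs per cell in members, against 6832 and 9560.5 in goblet barcodes. The 54 and 21 barcodes with UMIs of at least 3 T cell markers had an Atp12a UMI in 3.70 and 28.6% of cells. Their median totals were lower, 1689 and 4492 UMIs, and 3 of the 21 in replicate 2 were members. Of 236 and 62 goblet barcodes, 9 and 11 reached 700 CPM of the chosen genes, and 32 and 13 stood in the top 5% of doublet scores, and the source of these UMIs was not tested. The shares of members lay above those of goblet barcodes in both libraries. Those of Reg3-rich cells lay below them, with overlapping intervals. The share of cells low in both lay above that of goblet barcodes in replicate 1 (exact 95% intervals 45.8 to 60.8% and 28.7 to 41.2%) and near it in replicate 2. Cut down to 3000 UMIs per cell, the shares were 90.9 and 96.9% of members, 22.4 and 14.3% of Reg3-rich cells, and 35.0 and 32.7% of cells low in both.

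Slc37a2 stood at 499 and 281 CPM in members, 55.8 and 9.94 CPM in Reg3-rich cells, and 53.3 and 90.4 CPM in cells low in both. Its UMIs were seen in 75.8 and 54.7% of members, 14.3 and 7.14% of Reg3-rich cells, 22.8 and 34.7% of cells low in both, and 5.93 and 8.06% of goblet barcodes. Fxyd4 stood at 105 and 112 CPM in members, 8.37 and 0 CPM in Reg3-rich cells, and 14.9 and 13.9 CPM in cells low in both. A Fxyd4 UMI was found in 25.0 and 26.6% of members and in 3.81 and 6.45% of goblet barcodes, so that most members showed none. Members held 53.1 and 62.3% of all Atp12a UMIs of their library, 65.2 and 61.0% of those of Slc37a2 and 53.8 and 73.7% of those of Fxyd4.

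Whether the chosen genes go together was described by choosing cells with a pair of them and looking at the one left out, among colonocytes with Reg3b and Reg3g under 1500 CPM. Atp12a stood at 998 and 1479 CPM in cells at or above 700 CPM of Slc37a2 and Fxyd4, against 423 and 806 CPM in those below. Slc37a2 stood at 439 and 257 CPM in cells chosen by Atp12a and Fxyd4, against 142 and 128 CPM in the rest. Fxyd4 stood at 66.3 and 93.8 CPM in cells chosen by Atp12a and Slc37a2, against 40.9 and 37.4 CPM in the rest. Each gene was thus higher where the other pair was high, in both libraries. For Fxyd4 this rested on few cells. A UMI of it was seen in 23 of 122 chosen cells against 26 of 190 others in replicate 1. In replicate 2 it was seen in 15 of 62 against 6 of 51. Among members, the top 5 cells held 37.2 and 60.7% of the Fxyd4 UMIs. Cell by cell, Spearman's rho between Atp12a and Slc37a2 was 0.40 over 312 cells of replicate 1 and 0.19 over 113 cells of replicate 2. Between Atp12a and Fxyd4 it was 0.14 and 0.12, and between the summed level and the cell's total UMIs -0.13 and -0.06. The cells of a library share its depth and free RNA, and such weak values in sparse counts are no finding.

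Fabp6, given as a marker but not used to choose cells, was carried by a minority of members. It stood at 719 and 177 CPM in members, 22.3 and 0 CPM in Reg3-rich cells, and 97.2 and 88.0 CPM in cells low in both. A Fabp6 UMI was seen in 45 of 132 members of replicate 1 (34.1%) and 15 of 64 of replicate 2 (23.4%). In cells low in both the shares were 17.8 and 24.5%, and in goblet barcodes 8.90 and 12.9%. In replicate 2 the share of members with a Fabp6 UMI was therefore not above that of the cells low in both. Among the members of that library, 1 cell held 41.6% of the Fabp6 UMIs and 5 cells held 79.8%; in replicate 1 the same shares were 14.2 and 41.8%. Among members with a Slc37a2 UMI, 35 of 100 in replicate 1 and 11 of 35 in replicate 2 had a Fabp6 UMI. Among members without one, 10 of 32 and 4 of 29 did. Fabp6 was thus concentrated in a few strongly positive cells, and most members showed none.

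**Figure D2:**
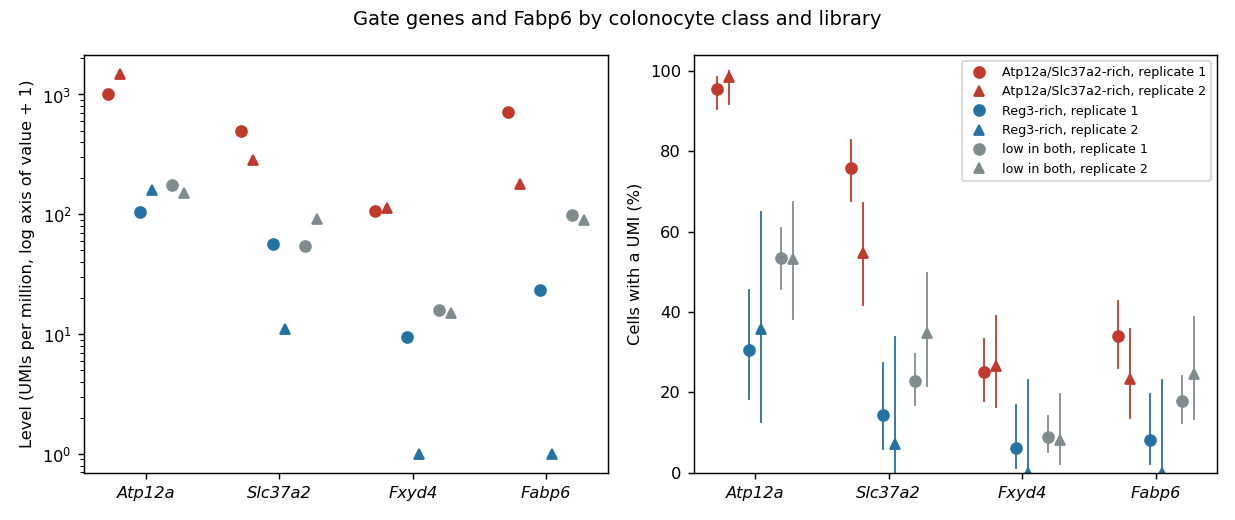
The left panel gives the level of 4 genes (CPM of the summed cells, log axis of value + 1) and the right panel the percent of cells with a UMI (exact 95% binomial intervals as lines), for members, Reg3-rich cells and cells low in both, with circles for replicate 1 and triangles for replicate 2. Atp12a, Slc37a2 and Fxyd4 were used to choose the members, so their higher levels there are no result. Fabp6 UMIs were seen in 34.1 and 23.4% of members, against 17.8 and 24.5% of cells low in both.

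Colonocyte markers were compared only among classes that had all passed the colonocyte limits, so they cannot test that label. Summed over 10 colonocyte markers, among them Car4, Slc26a3 and Krt20, members stood at 14773 and 14206 CPM, Reg3-rich cells at 14317 and 13733 CPM, and cells low in both at 13971 and 6190 CPM, with no marker at 0 in any class. In the edgeR test below, 5 of the 10 were called higher in members and 1, Cyp2c55, lower. Of all tested genes, 2.05% were called higher and 1.12% lower. Summed goblet markers stood at 2450 and 3598 CPM in members, 1836 and 3411 CPM in Reg3-rich cells, and 3986 and 6533 CPM in cells low in both. Markers of deep crypt secretory cells stood at 1075 and 1486 CPM in members, 784 and 1313 CPM in Reg3-rich cells and 2084 and 4360 CPM in cells low in both. Thus the cells low in both of replicate 2 were low in colonocyte and high in secretory markers, and the part of this in each comparison below was not tested. T cell markers summed to 62.0 and 189 CPM in members, 41.8 and 129 CPM in Reg3-rich cells and 43.1 and 67.2 CPM in cells low in both. In replicate 2, 3 members carried UMIs of at least 3 T cell markers; in replicate 1, 0 did. Markers of tuft, enteroendocrine, stem, cycling, plasma and B, macrophage, mast, fibroblast, endothelial and red cells each summed to 112 CPM or less in members.

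Without regard to the limit of 700 CPM, the genes whose level per cell followed the summed chosen genes most closely were ranked by Spearman's rho over colonocytes under the Reg3 limit. In replicate 1 (312 cells, 6073 genes) the first were Tgm3 at 0.563, an epidermal-type transglutaminase, Ly6a at 0.525, the mucin Muc13 at 0.516 and Tm4sf20 at 0.504. Behind them came Lypd8, Clca4b, Cd9, Saa1, H2-Aa and 2310079G19Rik, down to 0.421. In replicate 2 (113 cells, 7428 genes) the first was Muc13 at 0.693, followed by H2-Aa at 0.669, a chain of MHC class II, and Lypd8 at 0.649, which keeps flagellated bacteria away from the epithelium. Saa1, Ly6a, Tspan1, Tgm3, Clca4b, Sprr2a2 and Prdx6 followed, down to 0.590. Muc13, Lypd8, Ly6a, Tgm3, Clca4b, Saa1 and H2-Aa stood in the first 10 of both libraries. Tgm3 and Prdx6 also helped to choose colonocytes.

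Genes were then compared between members and the other colonocytes in UMI sums per class and library, 6 sums in all, with edgeR's quasi-likelihood test and Benjamini-Hochberg adjustment, which stand behind every adjusted p below. The contrast set members against the mean, on the log scale, of the Reg3-rich class and the class low in both. The genes used to choose cells, and Fabp6, were not tested, but the tested genes come from the same cells as the rule. Of 10482 genes, 332 (3.17%) had an adjusted p under 0.05, 215 (2.05%) higher and 117 (1.12%) lower in members. The median log2 fold change over all tested genes was 0.03, and 185 of the 332 differed at least 2-fold. The count depended on the fit, with 78 genes called by DESeq2, which gave an adjusted p for 3979 of the 10482 genes, 136 without the library as a block and 141 with the other colonocytes summed as 1 class. Of 72 genes named for this contrast, 24 kept their call in every other setting in which they had an adjusted p. Calls lost in 4 or more of these settings included those of Acads, Agr2, Aqp8, Atp1b3, Car12, Ccl6, Cldn15, Cyp2d9, Egr1, Fos, Gstm1, Gzma, Gzmb, H2-Ab1, Hoxb13, Hoxb7, Ifitm3, Oxct1, Prss30, Saa2, Scnn1a, Sgk1, Slc17a4, Slc46a1 and Sprr2a3. Fewer settings ended the calls of others. With DESeq2 these were Abcb1a, Ace, Car4, Cyp2c55, Dusp1, Hmgb2 and Slc4a7, and without the library as a block Abcb1a, Car4, H2-Aa, Muc13, Slc4a7 and Tmprss2. With the other colonocytes summed they were Cyp2c55, Cyp2c65, Duoxa2, H2-Aa, Hmgb2, Hoxd13, Kcnn4, S100g and Tmprss2. With members chosen by Slc37a2 and Fxyd4 they were 2410131K14Rik, Abcb1a, Asphd2, Chml, Cxcl5, Duoxa2, Kcnn4, Slc4a7, St18 and Wfdc18. Scaling by TMM raised the log2 fold changes by 0.131 in replicate 1 and 0.252 in replicate 2 relative to CPM. Of the called genes in the lists and rules described here, 58 of 60 higher and 34 of 34 lower kept their direction in CPM in both libraries, and the exceptions were Ccl6 and Gzmb.

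The 15 genes named for the largest rise are given by what they encode. S100g, the calcium-binding protein calbindin-D9k of absorptive cells, stood at 54.7 and 87.7 CPM in members, 11.2 and 9.94 CPM in Reg3-rich cells and 35.3 and 9.27 CPM in cells low in both. Its log2 fold change was 2.20 ± 0.39 (SE, adjusted p = 3.92e-06), and with the other colonocytes summed as 1 class it missed the threshold. Slc15a1, the proton-coupled peptide transporter, stood at 366 and 315 CPM in members, 106 and 119 CPM in Reg3-rich cells and 173 and 48.7 CPM in cells low in both. It rose by 1.88 ± 0.23 (adjusted p = 3.43e-13). Slc34a2, a sodium-phosphate cotransporter, stood at 116 and 122 CPM in members, 22.3 and 69.6 CPM in Reg3-rich cells and 49.4 and 30.1 CPM in cells low in both, a rise of 1.80 ± 0.30 (adjusted p = 3.70e-07). For all 3 transport genes both member sums lay above all sums of the other classes.

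Clca4b, a secreted-type protein named for chloride channel regulation, stood at 1150 and 1622 CPM in members, 393 and 477 CPM in Reg3-rich cells and 484 and 315 CPM in cells low in both. It rose by 1.92 ± 0.19 (adjusted p = 2.37e-20), though reads of its close relative Clca4a may be divided uncertainly. Sycn, the granule protein syncollin, stood at 902 and 580 CPM in members, 198 and 59.7 CPM in Reg3-rich cells and 335 and 239 CPM in cells low in both, and rose by 2.08 ± 0.21 (adjusted p = 1.75e-20). Tac1, the precursor of the neuropeptide substance P, stood at 252 and 167 CPM in members, 64.2 and 19.9 CPM in Reg3-rich cells and 95.6 and 62.6 CPM in cells low in both. It rose by 1.96 ± 0.25 (adjusted p = 1.54e-11). Wfdc18, which encodes a small protein with a whey acidic domain, rose by 1.81 ± 0.35 (adjusted p = 4.45e-05).

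St8sia5, a sialyltransferase, had the largest fitted change of the 15, 3.17 ± 0.44 (adjusted p = 2.91e-10), and DESeq2 gave no adjusted p for it. It stood at 65.7 and 81.7 CPM in members, 5.58 and 0 CPM in Reg3-rich cells and 19.6 and 13.9 CPM in cells low in both. The Reg3-rich cells held only 2 UMIs of it, so the pooled ratio of members to them, 16.5, has a 95% counting interval of 4.43 to 138. 2310079G19Rik stood at 433 and 203 CPM in members, 41.8 and 9.94 CPM in Reg3-rich cells and 83.9 and 32.4 CPM in cells low in both. Its rise of 3.15 ± 0.26 (adjusted p = 2.31e-29) had the smallest adjusted p of the named genes. Ubd, an interferon-inducible ubiquitin-like modifier, stood at 287 and 307 CPM in members, 92.1 and 29.8 CPM in Reg3-rich cells and 151 and 46.3 CPM in cells low in both, a rise of 2.09 ± 0.24 (adjusted p = 9.66e-15). Eno3, the muscle-type enolase of glycolysis, stood at 342 and 327 CPM in members, 72.5 and 89.5 CPM in Reg3-rich cells and 165 and 120 CPM in cells low in both, a rise of 1.86 ± 0.23 (adjusted p = 6.77e-13).

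The other named genes that rose were the cytochrome P450 gene Cyp2d10 (2.34), the GPI-anchored Ly6i (1.88), 2410131K14Rik (1.82) and 2210407C18Rik (1.75). The Cyp2d and Ly6 families hold near-identical genes, whose counts are uncertain. In all 15, both member sums lay above all 4 sums of the other classes, as did those of 4.89% of tested genes. Nothing is read from this, since the 15 were named for the largest rises in these sums. All 15 also passed the test against each of the other classes taken alone.

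**Figure D3:**
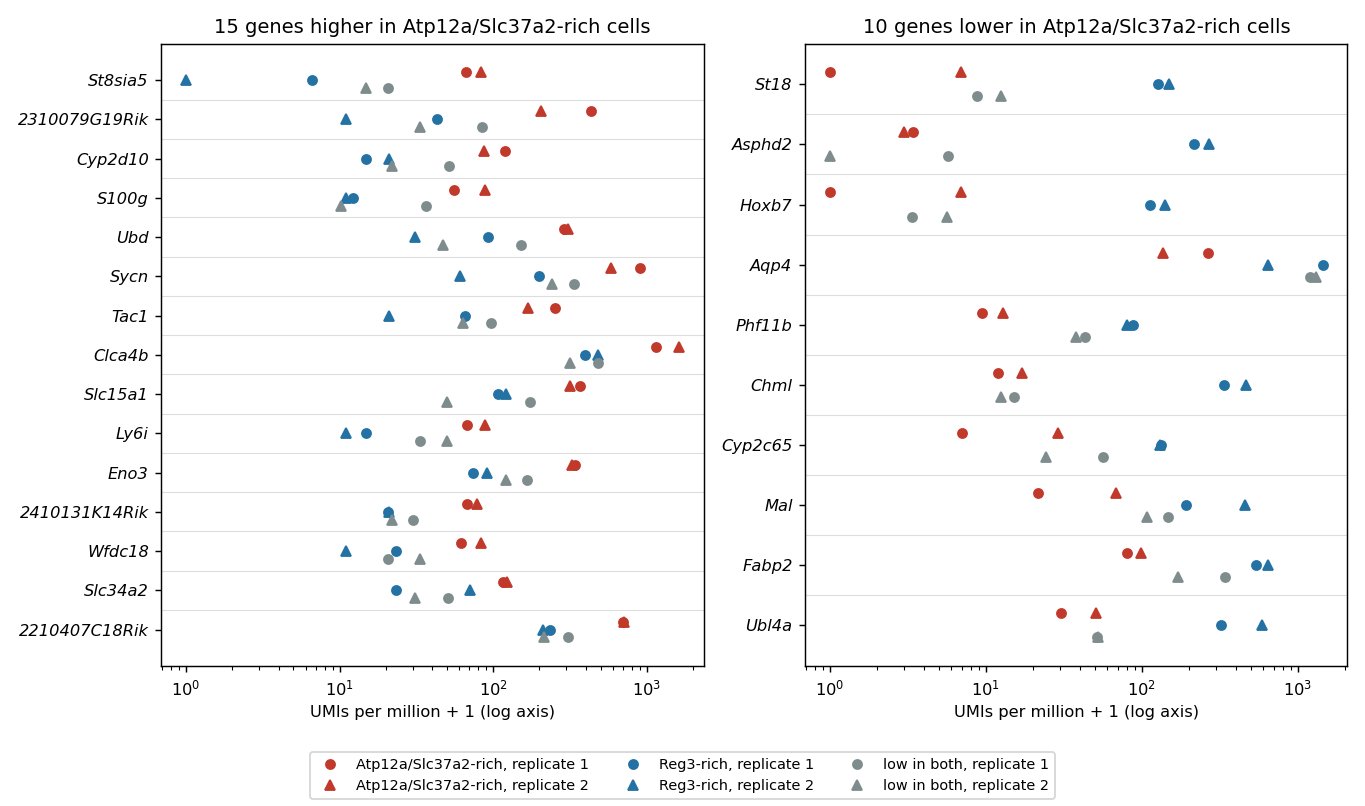
Each row is 1 gene and each point the level in 1 class of 1 library (CPM of the summed cells plus 1, log axis), for members, Reg3-rich cells and cells low in both, with circles for replicate 1 and triangles for replicate 2. The 15 genes at left lie higher in members than in the other classes, and St18, Asphd2, Hoxb7, Chml and Ubl4a at right are high in Reg3-rich cells.

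The genes named for the largest fall divided by the class they were set against. Aqp4, a basolateral water channel, stood at 265 and 135 CPM in members, 1445 and 646 CPM in Reg3-rich cells and 1201 and 1309 CPM in cells low in both. It fell by 2.37 on the log2 scale (SE 0.22, adjusted p = 6.74e-23) and was low against both other classes. Fabp2, the intestinal fatty acid-binding protein, stood at 79.0 and 97.6 CPM in members, 536 and 646 CPM in Reg3-rich cells and 340 and 169 CPM in cells low in both. It fell by 1.96 (SE 0.24, adjusted p = 7.72e-13). Mal, a proteolipid of apical sorting, stood at 20.7 and 67.7 CPM in members, 190 and 457 CPM in Reg3-rich cells and 147 and 107 CPM in cells low in both, a fall by 2.14 (SE 0.28, adjusted p = 3.25e-11). Phf11b fell by 2.36 (SE 0.43, adjusted p = 1.03e-05), and with cells cut down to 3000 UMIs it missed the threshold.

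St18, a zinc finger transcription factor, stood at 0 and 5.98 CPM in members, 126 and 149 CPM in Reg3-rich cells, and 7.84 and 11.6 CPM in cells low in both. Asphd2, Hoxb7, Chml and Ubl4a had the same shape, high in Reg3-rich cells and low in both remaining classes. Members held 3 UMIs each of St18, Asphd2 and Hoxb7, and the pooled ratios to Reg3-rich cells were 0.0173 (0.00348 to 0.0531), 0.0100 (0.00203 to 0.0300) and 0.0193 (0.00385 to 0.0594), with 95% counting intervals. Against cells low in both, none of these 5 genes passed the test in edgeR, with adjusted p-values from 0.438 for St18 to 0.990 for Chml. Cyp2c65, a cytochrome P450 gene, fell by 2.15 (SE 0.39, adjusted p = 6.83e-06) and likewise missed the threshold against cells low in both (adjusted p = 0.0543). With the other colonocytes summed as 1 class it missed the threshold as well. Of the 10 genes named for a fall, 6 had both member sums under all 4 other sums, as did 11.8% of tested genes, and the 10 were named for the largest falls in these sums.

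Ion transport genes related to the pump were read from lists. Every list count below against the mean of the other classes stands beside 2.05% of all tested genes called higher and 1.12% called lower. DESeq2 gave an adjusted p to only part of most lists, so its counts rest on fewer genes than those of edgeR. Of 15 tested genes of proton pumps, sodium-potassium pumps and potassium channels, 2 rose, 0 fell and 13 did not pass (median log2 fold change 0.12, against 0.03 over all genes), while DESeq2 called 1 higher and the test with the other colonocytes summed called 0. Kcnn4, the calcium-activated potassium channel, stood at 181 and 265 CPM in members, 97.6 and 79.6 CPM in Reg3-rich cells and 155 and 78.8 CPM in cells low in both. It rose by 1.27 ± 0.24 (adjusted p = 2.46e-05), but by 0.52 in replicate 1 alone and 1.73 in replicate 2 alone in CPM, and it missed the threshold in cells chosen by Slc37a2 and Fxyd4 and with the other colonocytes summed. Atp1b3, a beta subunit of the sodium-potassium pump, rose by 0.96 ± 0.30 (adjusted p = 0.0477), a call lost in 12 of 18 other settings. The gastric pump genes Atp4a and Atp4b were too low to test.

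Of 17 tested genes of the aldosterone and sodium channel list, 3 rose and 1 fell, with a median of 0.30. With the other colonocytes summed as 1 class, 0 passed in edgeR, and with DESeq2 1 rose, Tmprss2. Tmprss2, a membrane serine protease, rose by 0.89 ± 0.19 (adjusted p = 0.000397), standing at 1086 and 799 CPM in members, 580 and 358 CPM in Reg3-rich cells and 787 and 635 CPM in cells low in both. Scnn1a, the alpha subunit of the epithelial sodium channel, rose by 0.83 ± 0.22 (adjusted p = 0.00854), and the serine protease Prss30 by 0.74 ± 0.20 (adjusted p = 0.00971). Sgk1, an aldosterone-induced kinase, fell by 0.92 (SE 0.24, adjusted p = 0.00800), with 94.9 and 108 CPM in members, 273 and 328 CPM in Reg3-rich cells and 192 and 123 CPM in cells low in both. The calls of Scnn1a, Prss30 and Sgk1 were each lost in 5 or more other settings. Against Reg3-rich cells alone, only Tmprss2 and Sgk1 of this list passed in edgeR, and against cells low in both only Prss30. Scnn1a passed against neither class alone. The aldosterone receptor Nr3c2 (0.17 ± 0.25) and the cortisol-inactivating enzyme Hsd11b2 (-0.30 ± 0.20) did not pass. The channel's beta and gamma subunits, Scnn1b and Scnn1g, were too low to test.

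Of 21 tested genes of sodium-proton and anion exchange, 2 rose and 3 fell, with a median of 0. With DESeq2, and likewise without the library as a block, 0 rose and 1 fell, Guca2a. Car4, the apical carbonic anhydrase of colonocytes, stood at 3632 and 3768 CPM in members, 2466 and 2576 CPM in Reg3-rich cells and 2513 and 860 CPM in cells low in both, and rose by 1.10 ± 0.18 (adjusted p = 7.29e-07), a call lost in both of these settings. Slc26a3, the chloride-bicarbonate exchanger, rose by 0.65 ± 0.19 (adjusted p = 0.0202). Guca2a, the precursor of guanylin, stood at 989 and 1062 CPM in members, 2907 and 3510 CPM in Reg3-rich cells and 2555 and 1782 CPM in cells low in both. It fell by 1.17 (SE 0.20, adjusted p = 1.13e-06), below both other classes in both libraries. The bicarbonate transporter Slc4a7 fell by 1.09 (SE 0.26, adjusted p = 0.00161) and the carbonic anhydrase Car12 by 1.09 (SE 0.31, adjusted p = 0.0208). Of 3 tested aquaporins, Aqp4 fell, as above, and Aqp8 rose by 0.97 ± 0.19 (adjusted p = 4.33e-05). Aqp8 stood at 1347 and 1775 CPM in members, 873 and 1472 CPM in Reg3-rich cells and 1290 and 253 CPM in cells low in both, so that in replicate 1 members and cells low in both were close, and its call was lost in 4 of 18 other settings. Car4, Slc26a3 and Aqp8 were among the genes at their lowest in the cells low in both of replicate 2.

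Few genes of the metabolic lists next to Slc37a2 and Fabp6 passed. Of 33 tested genes of glucose-6-phosphate, glucose handling and glycolysis, 0 passed in edgeR and 0 of the 24 with an adjusted p in DESeq2 (median 0.06), while 6 had an unadjusted p under 0.05 in edgeR. The list does not hold the enolase gene Eno3, which rose, as above. Slc37a4, another glucose-6-phosphate carrier, had 9.73 and 19.9 CPM in members, 22.3 and 19.9 CPM in Reg3-rich cells and 14.1 and 30.1 CPM in cells low in both (log2 fold change -0.49 ± 0.52). Of 14 tested genes of bile acid transport and sensing, 1 rose, the efflux pump Abcb1a, by 0.90 ± 0.21 (adjusted p = 0.00113), and 0 passed with DESeq2 or without the library as a block. The bile acid receptor Nr1h4 (0.04 ± 0.25) and the transporter subunit Slc51b (-0.38 ± 0.30) did not pass, and the ileal uptake transporter Slc10a2 was too low to test. Of 17 genes of short-chain fatty acid uptake and ketogenesis, 1 rose and 2 fell (median -0.41), and 0 passed with DESeq2 or with the other colonocytes summed. Oxct1, which uses ketone bodies, rose by 0.87 ± 0.21 (adjusted p = 0.00204). Acads, a dehydrogenase of short-chain fatty acids, fell by 0.87 (SE 0.26, adjusted p = 0.0333). Of 21 fatty acid oxidation genes 0 passed in edgeR and 0 of the 18 with an adjusted p in DESeq2 (median 0.17), with 3 at an unadjusted p under 0.05 in edgeR. Of 18 lipid handling genes Fabp2 and the lipase Mgll fell (median -0.04).

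Genes of the surface of the mature colonic epithelium came next. Of 27 tested genes of that list, 8 rose and 1 fell, with a median of 0.36, against 0.03 over all genes and 2.05% of them called higher. With DESeq2 2 rose and 1 fell, and with the other colonocytes summed as 1 class 3 rose and 1 fell. The list was written with earlier results of these data known and shares genes with the likeness ranking, so its direction is not independent evidence. The same holds for the antimicrobial and MHC class II lists below, which hold Saa1 and H2-Aa of that ranking. Muc13 stood at 9434 and 7718 CPM in members, 5434 and 3888 CPM in Reg3-rich cells and 6421 and 4071 CPM in cells low in both, a rise of 1.01 ± 0.18 (adjusted p = 7.20e-06). Beside Clca4b, the genes Sprr2a3, Il18, Lypd8, Trim40, Sprr2a2 and Ceacam20 rose, by 0.98 down to 0.77. Against Reg3-rich cells alone, 3 genes of the list rose and 1 fell, and of the risers just named only Muc13 and Clca4b passed. Il18 and Trim40 did not pass against cells low in both either. The Sprr2a copies are near-identical, so their counts are uncertain. Emp1, an epithelial membrane protein, fell by 1.49 (SE 0.22, adjusted p = 5.10e-09), with 167 and 217 CPM in members, 577 and 1183 CPM in Reg3-rich cells and 629 and 232 CPM in cells low in both. Krt20, the keratin of mature colonocytes, did not pass (0.20 ± 0.19).

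Of 25 tested antimicrobial and inflammatory genes other than those of the rule, 7 rose and 1 fell. Their median was 0.55, against 0.03 over all genes, of which 2.05% were called higher and 1.12% lower. DESeq2 gave an adjusted p for 14 of these 25 genes and called 4 higher and 0 lower. With the other colonocytes summed 4 rose and 1 fell. Saa1, serum amyloid A, stood at 10411 and 8354 CPM in members, 4544 and 4783 CPM in Reg3-rich cells and 5595 and 2372 CPM in cells low in both, and rose by 1.34 ± 0.18 (adjusted p = 1.36e-10). Its near-identical copy Saa2 rose by 1.77 ± 0.48 (adjusted p = 0.0120), with reads that cannot be assigned with certainty. Pglyrp1, which binds bacterial peptidoglycan, rose by 1.16 ± 0.20 (adjusted p = 3.27e-06). The hydrogen peroxide-producing oxidase Duox2 rose by 1.07 ± 0.19 (adjusted p = 6.41e-06) and its maturation factor Duoxa2 by 1.21 ± 0.22 (adjusted p = 1.06e-05). Duoxa2 stood at 317 and 359 CPM in members, 232 and 109 CPM in Reg3-rich cells and 266 and 85.7 CPM in cells low in both, a log2 ratio of 0.35 in replicate 1 alone and 1.87 in replicate 2 alone. With members chosen by Slc37a2 and Fxyd4 it had a log2 fold change of -0.08. Duox2 stood at 914 and 966 CPM in members, 628 and 537 CPM in Reg3-rich cells and 600 and 334 CPM in cells low in both. The chemokine Cxcl5 passed with 5.78 ± 0.92 (adjusted p = 1.14e-07), but 34 of its 40 UMIs in members of replicate 1 came from 1 cell, and replicate 2 had 3.98 CPM in members against 6.95 CPM in cells low in both. All other colonocytes together held 3 Cxcl5 UMIs, and the pooled ratio was 22.9, with a 95% counting interval of 7.32 to 116. Ccl28 rose by 0.77 ± 0.24 (adjusted p = 0.0397), and the mucosal pentraxin Mptx1 fell by 0.92 (SE 0.25, adjusted p = 0.0111).

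Of 25 tested genes of MHC class II and interferon response, 4 rose and 1 fell (median 0.33). With DESeq2 2 rose and 0 fell, with the other colonocytes summed 1 rose and 0 fell, and without the library as a block 1 rose and 1 fell. H2-Aa stood at 4341 and 3684 CPM in members, 2926 and 2158 CPM in Reg3-rich cells and 3220 and 1758 CPM in cells low in both, a rise of 0.90 ± 0.18 (adjusted p = 0.000106), a call lost with the other colonocytes summed and without the block. H2-Ab1 (0.68 ± 0.19) and H2-Eb1 (0.66 ± 0.19) rose as well, with adjusted p-values of 0.0147 and 0.0194. Gbp2, an interferon-induced guanylate-binding protein, stood at 412 and 375 CPM in members, 220 and 69.6 CPM in Reg3-rich cells and 166 and 123 CPM in cells low in both, and rose by 1.58 ± 0.21 (adjusted p = 1.55e-10). Ifitm3 fell by 2.12 (SE 0.54, adjusted p = 0.00551), on 9 UMIs in members. The class II invariant chain Cd74 (0.35 ± 0.19) and the regulator Ciita (0.55 ± 0.32) did not pass.

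Of 37 tested genes of amino acid, nucleoside and metal transport, 9 rose and 1 fell (median 0.35), among them transporters of calcium, phosphate, iron and folate. DESeq2 gave an adjusted p for 21 of these 37 genes and called 4 higher. With the other colonocytes summed 3 rose. With S100g and Slc34a2 rose Trpv6, the apical calcium channel, which stood at 82.7 and 79.7 CPM in members, 25.1 and 19.9 CPM in Reg3-rich cells and 35.3 and 34.8 CPM in cells low in both (1.67 ± 0.33, adjusted p = 6.45e-05). The phosphate transporter Slc20a1 rose by 1.44 ± 0.28 (adjusted p = 6.24e-05), standing at 146 and 93.6 CPM in members, 39.1 and 39.8 CPM in Reg3-rich cells and 83.1 and 53.3 CPM in cells low in both. The proton-coupled folate transporter Slc46a1 rose by 2.02 ± 0.53 (adjusted p = 0.00729), a call lost in 5 of 16 other settings. The amino acid transporter Slc7a9, the choline transporter-like Slc44a4, the creatine transporter Slc6a8 and the iron exporter Slc40a1 rose by 1.17 down to 0.73. Slc17a4 fell by 2.03 (SE 0.62, adjusted p = 0.0344), on 7 UMIs in members, and lost its call in 12 of 16 other settings. Of 25 brush border genes 2 rose, Slc15a1 and the peptidase Ace (1.68 ± 0.36, adjusted p = 0.000397), with a median of 0.16.

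Regulators of gut identity were mixed. Of 32 tested transcription factors, 1 rose and 1 fell (median -0.21), and with DESeq2 or with the other colonocytes summed only the fall passed. DESeq2 gave an adjusted p for 17 of the 32. Cdx2, the homeobox factor of intestinal identity, stood at 139 and 93.6 CPM in members, 438 and 328 CPM in Reg3-rich cells and 336 and 257 CPM in cells low in both, and fell by 1.35 (SE 0.23, adjusted p = 1.72e-06). Hoxb13, a homeobox gene of the hindmost body, stood at 634 and 432 CPM in members, 296 and 259 CPM in Reg3-rich cells and 451 and 403 CPM in cells low in both, and rose by 0.81 ± 0.20 (adjusted p = 0.00340). Of 10 tested genes of position along the gut, Hoxb13 and Hoxd13 rose and Hoxb7 fell (median -0.23). Hoxd13 stood at 52.3 and 43.8 CPM in members, 2.79 and 0 CPM in Reg3-rich cells and 18.0 and 39.4 CPM in cells low in both (2.80 ± 0.53, adjusted p = 2.89e-05). The Reg3-rich cells held 1 UMI of it, and the pooled ratio of members to them was 22.5, with a 95% counting interval of 3.90 to 903. Against cells low in both, neither Hoxb13 (adjusted p = 0.359) nor Hoxd13 (adjusted p = 0.0968) passed in edgeR, and both calls against the mean of the classes were lost with the other colonocytes summed. That of Hoxb13 was also lost with DESeq2, which gave no adjusted p for Hoxd13. Hoxb13 and Hoxd13 thus differed between members and Reg3-rich cells. The position of the cells along the colon was not measured.

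Of 17 tested claudins and tight junction genes, Cldn8, a claudin of sodium-tight epithelium, rose by 1.64 ± 0.22 (adjusted p = 4.17e-11), and Cldn15, a channel-forming claudin, fell by 1.90 (SE 0.53, adjusted p = 0.0164). Cldn8 stood at 473 and 394 CPM in members, 112 and 39.8 CPM in Reg3-rich cells and 256 and 313 CPM in cells low in both. Cldn15 rested on 10 UMIs in members and lost its call in 10 of 16 other settings. Of 39 detoxification genes, 4 rose and 4 fell (median 0.17), against 1 and 2 with DESeq2, which gave an adjusted p for 23. Beside Cyp2d10 rose Cyp2d9 (1.60 ± 0.39), Cyp2d34 (0.95 ± 0.25) and Ces2a (0.88 ± 0.23), and beside Cyp2c65 fell Gstm1 (-1.50 ± 0.34), Aldh1a1 (-1.41 ± 0.26) and Cyp2c55 (-1.20 ± 0.27). Several of these belong to families of near-identical genes, whose counts are uncertain.

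Of 18 tested genes of dissociation and immediate early response, 0 rose and 4 fell. Their median was -0.54, against 0.03 over all genes, of which 1.12% were called lower. With DESeq2 1 fell, Jun, and with the other colonocytes summed 2 fell, Jun and Dusp1. Jun stood at 154 and 110 CPM in members, 407 and 288 CPM in Reg3-rich cells and 344 and 429 CPM in cells low in both, and fell by 1.30 (SE 0.23, adjusted p = 3.22e-06). Egr1 fell by 1.30 (SE 0.31, adjusted p = 0.00161), Dusp1 by 1.25 (SE 0.29, adjusted p = 0.00122) and Fos by 0.67 (SE 0.21, adjusted p = 0.0409). These genes respond to taking tissue apart as well as to growth signals. The median share of mitochondrially encoded UMIs was 5.29 and 10.7% in members, 5.35 and 10.2% in Reg3-rich cells and 5.21 and 9.51% in cells low in both. Of the 14 and 12 tested genes of DNA replication and mitosis, 0 passed in edgeR in either list, with medians of -0.30 and -0.54 and with 4 and 2 genes at an unadjusted p under 0.05. DESeq2 gave an adjusted p for 3 and 0 of them and called 0. Mitosis genes summed to 111 and 135 CPM in members, 167 and 259 CPM in Reg3-rich cells and 171 and 310 CPM in cells low in both. Of 14 crypt base and Wnt target genes, 1, Aqp4, fell (median -0.32). Among the cycling markers, Hmgb2 fell by 1.41 (SE 0.32, adjusted p = 0.000814).

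**Figure D4:**
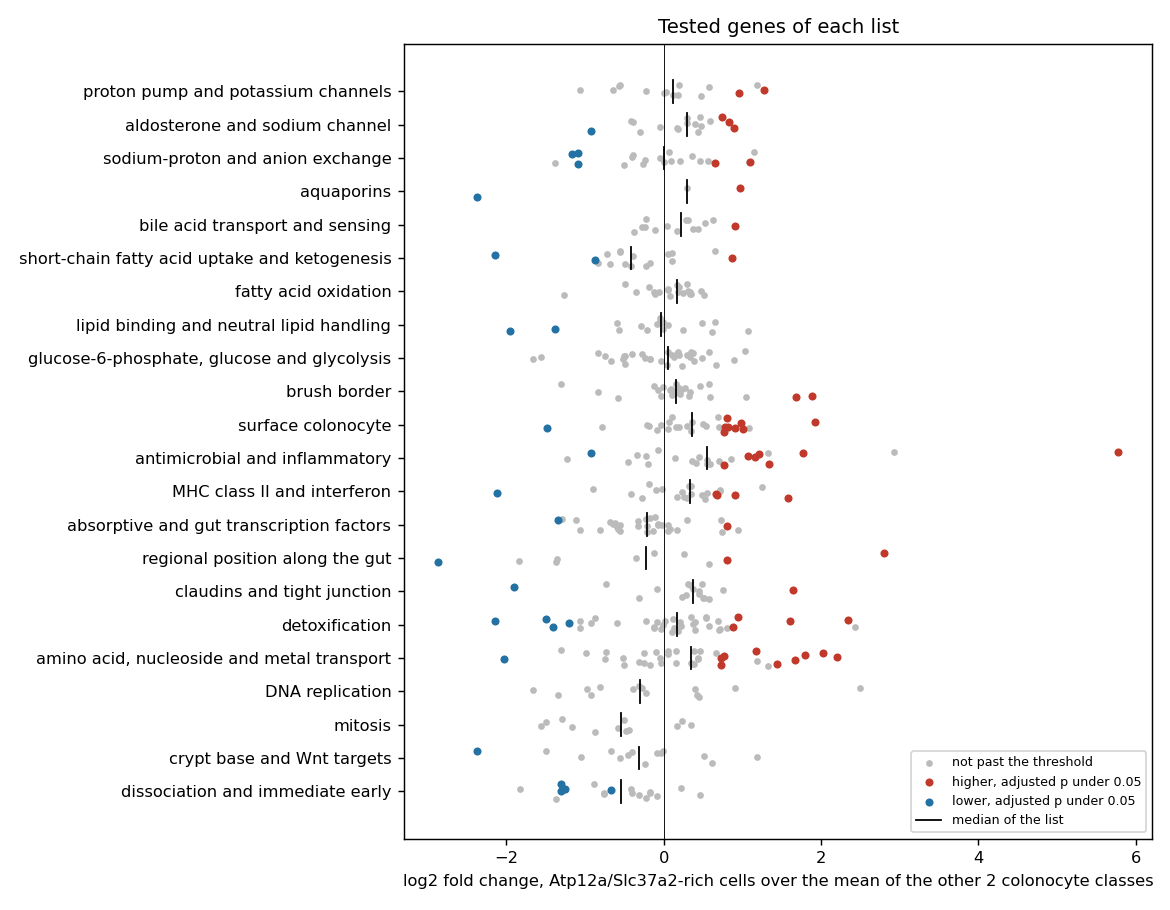
Each point is a tested gene, placed by its log2 fold change of members over the mean of the other classes (x axis) in the row of its list (y axis), coloured where the adjusted p was under 0.05; black bars are list medians. Surface colonocyte genes (8 higher, 1 lower of 27) and antimicrobial genes (7 higher, 1 lower of 25) lie mostly to the right, and immediate early genes (0 higher, 4 lower of 18) mostly to the left.

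Set against the Reg3-rich class alone, 193 of 10482 genes (1.84%) passed, 121 (1.15%) higher and 72 (0.687%) lower in members. Named risers were St8sia5, 2310079G19Rik, Cyp2d10, S100g, Ly6i and Sycn, and named fallers Asphd2, St18, Hoxb7, Chml, Ubl4a and Aven. Aven, a cell death inhibitor, stood at 24.3 and 21.9 CPM in members, 243 and 278 CPM in Reg3-rich cells and 31.4 and 23.2 CPM in cells low in both. Car1, a cytosolic carbonic anhydrase, fell by 1.00 against Reg3-rich cells (adjusted p = 0.00142) and did not pass against the mean of both classes (adjusted p = 0.180). It stood at 752 and 568 CPM in members, 1635 and 1372 CPM in Reg3-rich cells and 1139 and 470 CPM in cells low in both. The goblet marker Clca1 was higher in members than in Reg3-rich cells (0.90, adjusted p = 0.0451), as was Fcgbp (1.20, adjusted p = 0.0326), of which 1 member of replicate 2 held 113 of 171 UMIs.

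Set against cells low in both, which the rule parts from members by the summed Atp12a, Slc37a2 and Fxyd4, 263 genes (2.51%) passed, 142 (1.35%) higher and 121 (1.15%) lower. Among the surface colonocyte genes 10 rose and 1 fell, with a median of 0.59 against 0 over all genes. Named risers were 2310079G19Rik (2.63), St8sia5 (2.18), Clca4b (1.95), Slc15a1 (1.81), Ubd (1.80) and Wfdc18 (1.69). Named fallers were Aqp4 (-2.53), Gstm1 (-1.62), Mal (-1.61), Agr2 (-1.60), Egr1 (-1.48) and the ribosomal protein gene Rpsa (-1.45), which has many near-identical copies. Agr2, which folds mucins in goblet cells, stood at 93.6 and 217 CPM in members, 100 and 229 CPM in Reg3-rich cells and 301 and 816 CPM in cells low in both. It moved with Muc2, Spink4, Reg4, Nov and Txndc5, which were all lower in members than in cells low in both, by 1.05 to 2.55 on the log2 scale. These are goblet and deep crypt secretory markers, whose sums are given above, and their part in this comparison was not tested.

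Gzma and Gzmb, granzymes of T cells, also passed against the mean of the other classes, with 4.21 ± 1.05 (adjusted p = 0.00406) and 4.24 ± 1.25 (adjusted p = 0.0263). In replicate 2, 16 of 17 Gzma UMIs and 17 of 18 Gzmb UMIs of members each came from 1 cell. In replicate 1, members held 9 Gzma and 0 Gzmb UMIs. The other colonocytes held 9 and 2, so the pooled ratios of members to them were 4.73 (95% counting interval 2.15 to 11.5) for Gzma and 14.7 (3.53 to 131) for Gzmb. Without the barcodes that carried UMIs of at least 3 T cell markers, 299 genes passed, 296 of them among the 332. Atp1b3, Slc17a4 and Agr2 then missed the threshold.

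Per cell, the median total was 6041 and 7749 UMIs in members, 7284 and 5557.5 in Reg3-rich cells and 6688 and 8834 in cells low in both. Replicate 1 held 8602490 UMIs in 1738 barcodes and replicate 2 3951918 in 664. The sums compared held 822326 and 501916 UMIs in members, 358466 and 100564 in Reg3-rich cells, and 1275867 and 431627 in cells low in both. The Reg3-rich sum of replicate 2, from 14 cells, is the shallowest, and 1 UMI there stands for 9.94 CPM. No barcode of replicate 1 had the same counts as one of replicate 2 (0 in all). Scored as probable doublets, in the top 5% of their library, were 3 and 3 members, 3 and 1 Reg3-rich cells and 15 and 4 cells low in both.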

How the data were processed

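The deposited tables hold whole-number UMI counts per gene and barcode for 25504 genes, with no normalization by the authors. Per the submitters' processing notes, the builds were GRCh38 and GRCm38. The sources used here do not name the aligner, annotation, strand or barcode filter, so counts of overlapping, antisense and near-identical genes are uncertain. The members and gene lists were chosen with earlier results of these data known. Cells were chosen by the levels given with the results, and doublets were left in (an alternative removes the highest-scoring 5%). UMIs were summed per colonocyte class and library (6 sums) and tested with edgeR 4.0.16 (TMM, quasi-likelihood, class plus library as a block, 2 residual degrees of freedom, common dispersion 0.0244), after a filter of 20 UMIs over the sums, with Benjamini-Hochberg adjustment over 10482 genes at 0.05. The block rests on construction: the classes are cut from the same 2 libraries. DESeq2 1.42.0 was an alternative, and genes to which it gave no adjusted p count there as neither kept nor lost. Genes were named by rule: the 15 largest and 10 smallest log2 fold changes among called genes of the same direction in both libraries and at least 50 CPM, 6 each way against single classes, and up to 4 called genes per list. Others given with values were chosen after their values were seen. Intervals are exact Clopper-Pearson intervals, or exact intervals for the ratio of pooled UMIs. The fitted fold changes are log2 ratios. Each SE was derived from the edgeR test, as the absolute log2 fold change divided by the square root of the quasi-likelihood F statistic. K562 cells and gene sequences were not analysed here, and a few genes that were counted among the tested genes are not reported here by name.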

Additional observations from a re-analysis of the deposited data

How the results depend on the processing

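The count of genes called between members and the mean of the other classes was 332, and it was 203 with no filter on low counts, 78 with DESeq2 (of 3979 genes with an adjusted p), 136 with no replicate block, 141 with the other colonocytes summed, 210 with at least 5000 UMIs per cell, 216 with mitochondrially encoded genes under 10%, 190 with members chosen by Slc37a2 and Fxyd4, and 194 with cells thinned to 3000 UMIs. Against Reg3-rich cells the count was 193, and 57 with DESeq2 (of 5198), 90 with no replicate block and 128 with mitochondrially encoded genes under 10%. Against cells low in both it was 263, and 143 with no filter, 42 with DESeq2 (of 1744), 70 with no replicate block, 160 with at least 5000 UMIs, 143 with mitochondrially encoded genes under 10%, 60 with members chosen by Slc37a2 and Fxyd4, and 118 with thinned cells. The share of these calls that were higher in members was 54.0%, against 43.4% with no filter and 36.7% with Slc37a2 and Fxyd4. The share of colonocytes that were members in replicate 1 was 46.5, 26.3 and 17.5% with the limit at 500, 1000 and 1400 CPM, 13.9% by Slc37a2 and Fxyd4, 26.6% by Atp12a and Fxyd4 and 31.2% in thinned cells. In replicate 2 it was 29.1% at 1400 CPM and 11.8% by Slc37a2 and Fxyd4. The causes were not tested. Of 1861 values of named genes under these settings, 1545 kept their call or moved by less than the spread between libraries, 218 lost their call, 91 moved further with 1 library alone and 7 changed sign. Values with 1 library alone are log2 ratios of CPM plus 1, not TMM-scaled fits. Against the other classes together they use the mean CPM of these classes, while the fit averages the classes on the log scale. A move therefore does not by itself show that the libraries differed. Chml, for example, stood at -2.31 in the fit, -3.83 in replicate 2 alone and -3.89 in replicate 1 alone. Agr2 stood at 0.06 with the limit at 500 CPM, Duoxa2 at -0.08 by Slc37a2 and Fxyd4, Ccl6 at -0.03 without replicate 1 and 0.67 without replicate 2, and Gzmb at -0.72 with the limit at 1000 CPM, -0.07 at 1400 CPM, -2.50 by Slc37a2 and Fxyd4, -0.83 without replicate 2 and 5.20 without replicate 1. Size factors of DESeq2, a filter of 100 UMIs, Zg16 under 5000 CPM, limits of 500, 1000 and 1400 CPM, members by Atp12a with Fxyd4 or Slc37a2, the doublet filter and, chosen after seeing the data, leaving out T cell marker barcodes each gave a count within 1.5 times the main one in all 3 comparisons. With 1 library left out no residual degrees of freedom remain, so calls could not be given. Both libraries come from 1 animal, 14 cells make up the Reg3-rich class of replicate 2, and membership near 700 CPM turns on a few UMIs.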

Other observations

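Among the genes that followed the chosen genes across single cells, several belong to no list described above and were also higher in the summed members. Tm4sf20, a membrane protein, had a log2 fold change of 1.55 ± 0.19 against the mean of the other classes (edgeR, Benjamini-Hochberg adjusted p = 4.31e-13). Cd9, a tetraspanin, had 1.27 ± 0.19 (edgeR, adjusted p = 6.04e-09). Ly6a, a GPI-anchored protein whose family holds near-identical genes, had 1.14 ± 0.18 (edgeR, adjusted p = 1.14e-07). The 3 genes were named by the ranking across cells, which uses the same cells, so that these values are no independent support.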
